A study of Mus musculus with 12 samples.

Results

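The Serpina3 genes are a mouse family of protease inhibitors, and 8 of them, Serpina3c, Serpina3f, Serpina3g, Serpina3h, Serpina3i, Serpina3k, Serpina3m and Serpina3n, were followed here out of 22923 gene symbols measured. They were chosen because Serpina3 genes were higher in αB-crystallin/HspB2 knockout (KO) muscle than in wild type (WT) muscle, so their KO and WT values are given as a description, and nothing is drawn from how the members stand in that comparison. Serpina3f and Serpina3g were listed together in 1 joint row and could not be separated, which left 7 rows.

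Hind leg muscle RNA came from 12 samples of male FVB mice (FVB/N in the study's methods) aged 22 weeks, each taken to be a separate mouse, 3 in each of 4 groups. Normal chow was fed throughout to a WT and a KO group, called chow-fed here, and a high fat diet was fed from 6 weeks of age to the other WT and KO group, called fat-fed. KO mice lack Cryab, which encodes αB-crystallin, and its neighbour Hspb2, both small heat shock proteins of muscle, and the deletion is present in all tissues, so an effect that starts outside muscle cannot be told apart from one that starts within it. WT and KO mice were bred from heterozygous parents, and the titles call the WT samples Flox.

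Samples were grouped by title, because the genotype label of 6 of the 12 samples contradicted it. Cryab lay between 412 and 837 FPKM in the 6 samples with a WT title and between 0.845 and 1.75 FPKM in the 6 with a KO title, where FPKM are sequenced fragments scaled to transcript length and library size. Values summed to between 484182 and 691621 FPKM in each library once the microRNA gene Mir324, which made up most of the FPKM sum of 1 chow-fed KO library, was left out. The muscle markers Ckm and Tnnt3 were at least 13276 and 9588 FPKM in all 12 samples, whereas Acta1 was listed at 0 in 2 of them, so a listed 0 need not be an absent transcript. B and T cell genes were high in 3 chow-fed libraries, WT replicate 2 and KO replicates 1 and 3, and the sum of adipocyte genes was lowest in replicate 1 of both WT groups.

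Serpins inhibit proteases by offering an exposed stretch, the reactive centre loop, as bait. The protease cuts the loop and is trapped on the inhibitor, so the loop decides which proteases are caught. Humans have a lone SERPINA3 gene, for the acute phase protein α1-antichymotrypsin, whereas in mice the gene has multiplied into a cluster of paralogs with different loops. Liver makes much of the circulating protein, and Serpina3n is also made in fat, brain and muscle, where glucocorticoids and inflammation induce it.

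By GENCODE M21, which annotates mouse build GRCm38, the 8 genes lay on chromosome 12 within chr12:104146382-104414329, a span of 268 kb. Serpina3c was on the minus strand and the other 7 on the plus strand. Serpina3n, at the distal end of the row, was annotated at chr12:104406729-104414329 as protein coding. Serpina3h at chr12:104247905-104253669 and Serpina3i at chr12:104263122-104269372 were neighbours. Serpina3h was annotated as a transcribed unprocessed pseudogene, and the longest open reading frame of its transcript was 171 residues against 418 in that of Serpina3n. These annotations describe the C57BL/6J reference, and the FVB sequence of the cluster was not used here.

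The stretches that code for the reactive centre loop are shown because they are where the paralogs differ most in function. They were read 5′ to 3′ from the annotated transcripts, between residues conserved on either side of the loop, and were found in 6 of the 8 genes but not in Serpina3c or Serpina3h. The longest open reading frame of Serpina3c was 417 residues. The search looked for fixed residues, so missing the stretch in Serpina3c does not show that its loop is absent. Capitals mark bases that did not match Serpina3n in a pairwise alignment.
Serpina3n: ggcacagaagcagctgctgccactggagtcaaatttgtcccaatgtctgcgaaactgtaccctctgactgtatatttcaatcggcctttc
Serpina3i: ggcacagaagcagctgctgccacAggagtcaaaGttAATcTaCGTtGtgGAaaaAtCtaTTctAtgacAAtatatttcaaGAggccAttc
Serpina3m: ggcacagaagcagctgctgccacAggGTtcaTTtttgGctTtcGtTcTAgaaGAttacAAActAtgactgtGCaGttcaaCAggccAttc
Serpina3g: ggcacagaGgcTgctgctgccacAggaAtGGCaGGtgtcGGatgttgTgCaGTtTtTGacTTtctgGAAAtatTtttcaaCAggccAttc
Serpina3f: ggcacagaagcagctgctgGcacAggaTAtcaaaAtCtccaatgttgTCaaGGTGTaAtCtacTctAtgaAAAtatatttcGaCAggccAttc
Serpina3k: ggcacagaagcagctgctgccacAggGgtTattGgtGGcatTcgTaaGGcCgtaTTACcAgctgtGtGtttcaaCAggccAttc
The first bases of the loop were nearly the same in these genes, and the differences lay further along. Of the 90 bases in Serpina3n, the stretch differed from it at 22 in Serpina3i and at 28 in Serpina3g. The stretch was 84 bases long in Serpina3k and 93 in Serpina3f. In the encoded loop, 19 of 30 residues of Serpina3i and of Serpina3m, and 17 of 30 of Serpina3g, were the same as in Serpina3n.

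Whether reads could be told apart between paralogs bears on every value that follows, so the transcripts were also compared over windows of 100 bases, the length of 1 read. Identity between the transcripts of 2 members, where they aligned, ranged from 80.0% to 94.3% over the 28 pairs. Of the windows of Serpina3n, 3.87% came within 2 mismatches of any other Serpina3 transcript, and of those of Serpina3c 1.99%. The share was 22.0% for Serpina3h and 23.4% for Serpina3i, the largest among the 8. For Serpina3h most of it was with its neighbour, since 21.8% of its windows came within 2 mismatches of Serpina3i and 0 of 1140 came that close to Serpina3n. For Serpina3i it was spread over more paralogs, with 11.9% of windows that close to Serpina3h, 9.61% to Serpina3f and 5.57% to Serpina3g.

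**Figure D1:**
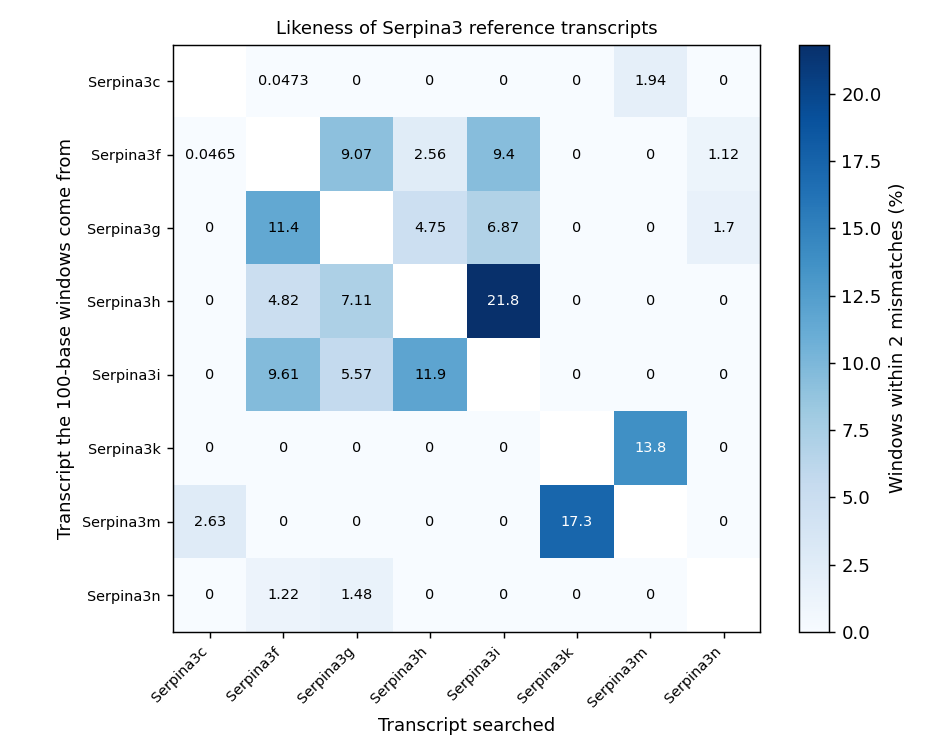
Share of 100-base windows of each reference transcript (vertical axis) that came within 2 mismatches of another Serpina3 transcript (horizontal axis), in percent. The darkest cell is Serpina3h against Serpina3i at 21.8%, and Serpina3h against Serpina3n is 0.

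A 90-base stretch of the Serpina3h transcript, with its counterparts, shows what a read had to tell the paralogs apart. Capitals mark bases that did not match Serpina3h.
Serpina3h: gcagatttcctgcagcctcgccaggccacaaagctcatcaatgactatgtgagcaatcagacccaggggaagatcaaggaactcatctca
Serpina3i: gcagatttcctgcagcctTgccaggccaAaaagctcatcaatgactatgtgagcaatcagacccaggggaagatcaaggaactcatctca
Serpina3c: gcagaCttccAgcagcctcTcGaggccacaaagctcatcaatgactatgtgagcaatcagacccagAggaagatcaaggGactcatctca
Serpina3n: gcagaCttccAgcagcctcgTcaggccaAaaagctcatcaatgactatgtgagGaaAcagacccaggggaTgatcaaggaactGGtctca
In this stretch Serpina3i differed from Serpina3h at 2 bases, Serpina3c at 6 and Serpina3n at 9. How the authors' quantification shared reads between the paralogs was not tested, and FVB alleles may differ from the bases shown.

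Of the members, Serpina3n had the highest level in all 12 samples. It is the mouse counterpart most often likened to human α1-antichymotrypsin and inhibits granzyme B and neutrophil elastase. Its level was 11.5, 30.9 and 30.3 FPKM in the chow-fed WT mice and 8.27, 22.2 and 30.5 FPKM in the fat-fed WT mice. The chow-fed KO mice had 45.8, 28.8 and 37.9 FPKM and the fat-fed KO mice 38.3, 54.9 and 42.3 FPKM. Of the 6 KO samples, 5 were above all WT samples, and the sixth, chow-fed replicate 2, lay within the WT range. The chow-fed means were 24.3 ± 11.04 FPKM for WT and 37.5 ± 8.52 FPKM for KO, and the fat-fed means 20.3 ± 11.2 FPKM for WT and 45.2 ± 8.64 FPKM for KO (SD, n = 3 each). Over both diets the KO mean was 1.85 times the WT mean.

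The plot of the members by library shows the same values with the other members. In bulk muscle, more cells of a type that make a transcript and more transcript in each cell cannot be told apart.

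**Figure D2:**
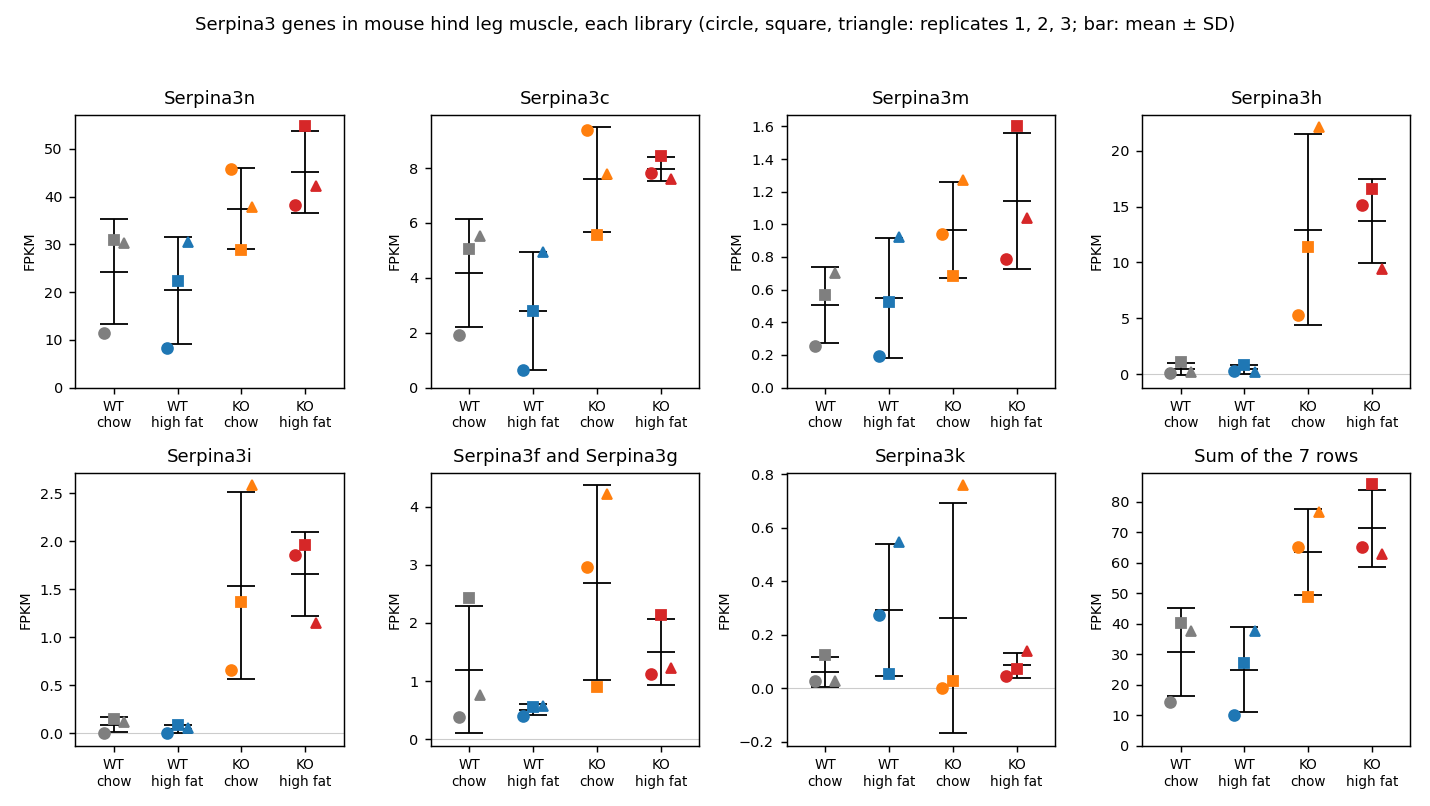
Level of each Serpina3 row in every library (FPKM, linear axes that differ between panels), by group, with the group mean and SD (n = 3 each) and, in the last panel, the sum of the 7 rows. Serpina3h and Serpina3i sit near 0 in all 6 WT libraries and above them in all 6 KO libraries, whereas Serpina3n overlaps between the genotypes.

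Serpina3c, a secreted paralog also known as a kallikrein-binding protein, was lower than Serpina3n in every sample. It measured 1.91, 5.04 and 5.54 FPKM in chow-fed and 0.638, 2.80 and 4.95 FPKM in fat-fed WT mice. The KO values were 9.39, 5.57 and 7.80 FPKM when chow-fed and 7.82, 8.44 and 7.61 FPKM when fat-fed. The genotypes did not overlap, by a narrow margin, since the lowest KO sample was at 5.57 FPKM and the highest WT sample at 5.54 FPKM. The KO mean over both diets was 2.23 times the WT mean.

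Serpina3m, another secreted paralog, reached no more than 1.60 FPKM. Chow-fed WT mice had 0.252, 0.565 and 0.701 FPKM and fat-fed WT mice 0.191, 0.525 and 0.924 FPKM. Among KO mice the values were 0.939, 0.682 and 1.27 FPKM in the chow-fed and 0.787, 1.60 and 1.04 FPKM in the fat-fed. In 4 of 6 KO samples it was above all WT samples, and the mean was 1.05 FPKM in KO against 0.526 FPKM in WT.

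Serpina3n, Serpina3c and Serpina3m were all lowest in replicate 1 of the chow-fed and replicate 1 of the fat-fed WT group, the pair of libraries with the lowest sum of adipocyte genes. That sum was 603 and 591 FPKM in the pair and 731 FPKM in replicate 2 of the fat-fed WT group. Most of it was Fabp4, at 483 and 584 FPKM in the pair and 616 FPKM in that replicate 2, so the order of libraries rests largely on this gene. Adiponectin (Adipoq), a hormone of fat cells, was 21.2 and 1.40 FPKM in the pair and 28.9 to 224 FPKM in the other 10. Cfd, another adipocyte gene, was 2.77 FPKM in fat-fed WT replicate 1 but 69.1 FPKM in chow-fed WT replicate 1. The latter was above the 24.6 and 59.9 FPKM of replicate 2 of the fat-fed WT and KO groups. The 7 adipocyte genes summed to between 591 and 2171 FPKM in WT and to between 1800 and 4513 FPKM in KO mice. Without the pair of libraries lowest in the sum, the ratio of KO to WT means was 1.45 for Serpina3n, 1.70 for Serpina3c and 1.55 for Serpina3m. Since these genes were lowest in that WT pair, leaving it out was bound to lower their ratios, whatever the fat content. The part of fat in the sampled muscle in these values was not tested.

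Serpina3h, the annotated pseudogene, had the largest ratio of KO to WT means over both diets. WT mice had 0.0941, 1.10 and 0.219 FPKM when chow-fed and 0.275, 0.842 and 0.159 FPKM when fat-fed. KO mice had 5.26, 11.4 and 22.1 FPKM when chow-fed and 15.2, 16.5 and 9.43 FPKM when fat-fed. The genotypes were far apart, with the lowest KO sample at 5.26 FPKM against 1.10 FPKM in the highest WT sample, although the chow-fed KO samples were spread more widely than the fat-fed ones. The ratio of means was 29.7. Without the pair of libraries lowest in adipocyte genes, which lay below the WT mean of Serpina3h, it was 23.0. Among fat-fed mice alone the ratio was 32.2, below the 35.2 of Serpina3i.

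Its neighbour Serpina3i, which the reference annotates as protein coding, followed the same pattern lower down. It was listed at 0 in replicate 1 of both WT groups and was 0.154, 0.122, 0.0862 and 0.0553 FPKM in the other WT samples. The chow-fed KO samples were at 0.664, 1.36 and 2.58 FPKM and the fat-fed ones at 1.86, 1.96 and 1.15 FPKM. No KO sample overlapped the WT samples. The order of the KO samples was the same as for Serpina3h on both diets.

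The joint row of Serpina3f and Serpina3g followed other samples. Serpina3g, also known as Spi2A, is a cytosolic inhibitor of cysteine cathepsins that lymphocytes make on activation. The row stood at 0.386, 2.44 and 0.760 FPKM in chow-fed and 0.400, 0.550 and 0.570 FPKM in fat-fed WT mice. It stood at 2.96, 0.897 and 4.21 FPKM in chow-fed and 1.13, 2.15 and 1.23 FPKM in fat-fed KO mice. The high chow-fed samples, WT replicate 2 and KO replicates 1 and 3, were those with high lymphocyte genes. There the 9 T cell genes summed to 44.5, 51.2 and 51.6 FPKM, against 0.306 to 3.41 FPKM in the other 9 samples. The ratio of KO to WT means was 2.46 with overlapping genotypes, and without those 3 libraries it was 2.53 with no overlap, with 1 chow-fed KO sample left. The part of lymphocytes in the row was not tested.

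Serpina3k, an abundant plasma serpin of mouse liver, stayed under 1 FPKM in all 12 samples and was left out of the tests for its low values. WT mice had 0.0282, 0.124 and 0.0262 FPKM when chow-fed and 0.274, 0.0553 and 0.548 FPKM when fat-fed. Among chow-fed KO mice it was listed at 0 in replicate 1 and at 0.0276 and 0.759 FPKM in the others, and the fat-fed KO mice had 0.0478, 0.0714 and 0.139 FPKM. The genotypes overlapped. The hepatocyte marker albumin (Alb) was at most 4.998 FPKM in any sample.

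Summed over the 7 rows, the family reached 14.2, 40.3 and 37.7 FPKM in chow-fed and 10.05, 27.1 and 37.7 FPKM in fat-fed WT mice. The sum was 65.0, 48.7 and 76.7 FPKM in chow-fed and 65.1, 85.6 and 62.9 FPKM in fat-fed KO mice. All 6 KO sums were above all 6 WT sums, with a difference of 39.5 FPKM between the means. Serpina3n accounted for 19.02 FPKM of it, or 48.2%, and Serpina3h for 12.9 FPKM, or 32.6%. Serpina3c added 4.29 FPKM, Serpina3i 1.53 FPKM, the joint row of Serpina3f and Serpina3g 1.25 FPKM and Serpina3m 0.526 FPKM, while the Serpina3k means differed by -0.0019 FPKM.

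The make-up of the sum also differed. Serpina3n was 79.4% ± 2.43 and 81.8% ± 0.759 of it in chow-fed and fat-fed WT mice, and 59.6% ± 10.5 and 63.4% ± 4.24 in chow-fed and fat-fed KO mice (SD, n = 3 each). Serpina3h was 1.32% ± 1.21 and 2.09% ± 1.45 of it in WT mice and 20.1% ± 10.8 and 19.2% ± 4.14 in KO mice (SD, n = 3 each). By amount the difference was mostly Serpina3n and Serpina3h, and the rows furthest apart between the genotypes for their level were Serpina3h and Serpina3i.

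**Figure D3:**
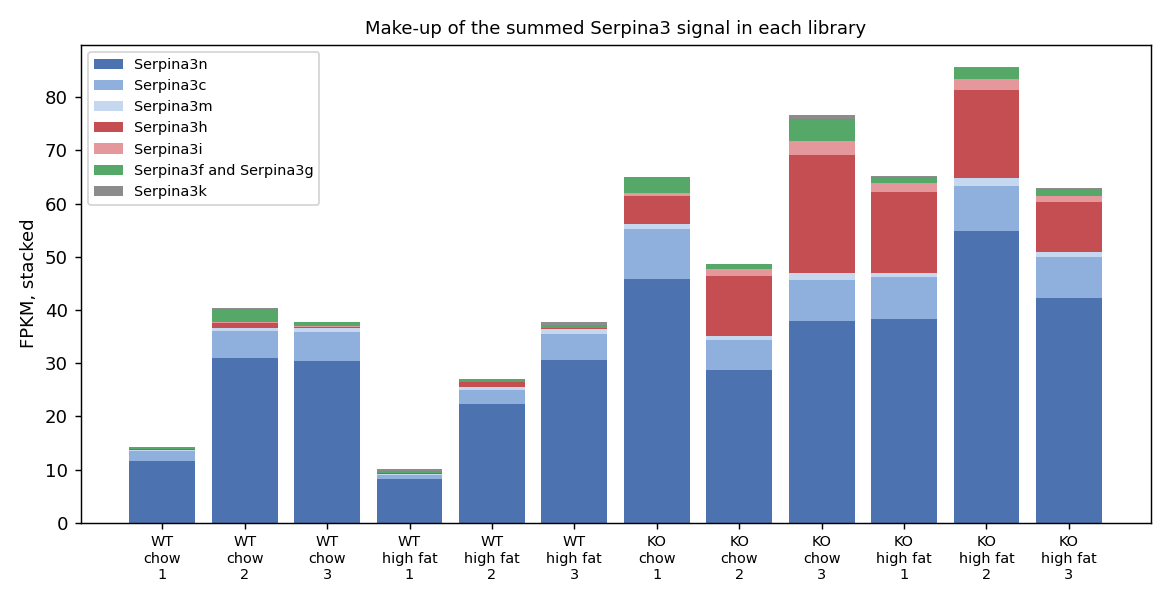
Sum of the 7 Serpina3 rows in each of the 12 libraries (FPKM, stacked by gene). Serpina3n is the largest segment of every bar, and the Serpina3h segment, 5.26 to 22.1 FPKM in KO libraries, is at most 1.10 FPKM in WT libraries.

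Ratios between paralogs were also taken within each library. Serpina3h was between 7.92 and 8.56 times Serpina3i in all 6 KO samples, with a median of 8.27, although Serpina3h itself ranged from 5.26 to 22.1 FPKM there. In the 4 WT samples in which Serpina3i was above 0, the ratio ran from 1.80 to 9.77. How reads were shared between Serpina3h and Serpina3i was not tested. Serpina3n was 4.86 to 6.50 times Serpina3c in KO mice and 5.47 to 13.0 times in WT mice, and 29.9 to 48.7 times Serpina3m in KO mice and 33.0 to 54.7 times in WT mice. These ratios overlapped between genotypes. The ratio of Serpina3n to Serpina3h did not, lying between 1.71 and 8.71 in KO mice and between 26.4 and 191 in WT mice. That restates the KO and WT values on which the members were chosen and is no separate result.

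**Figure D4:**
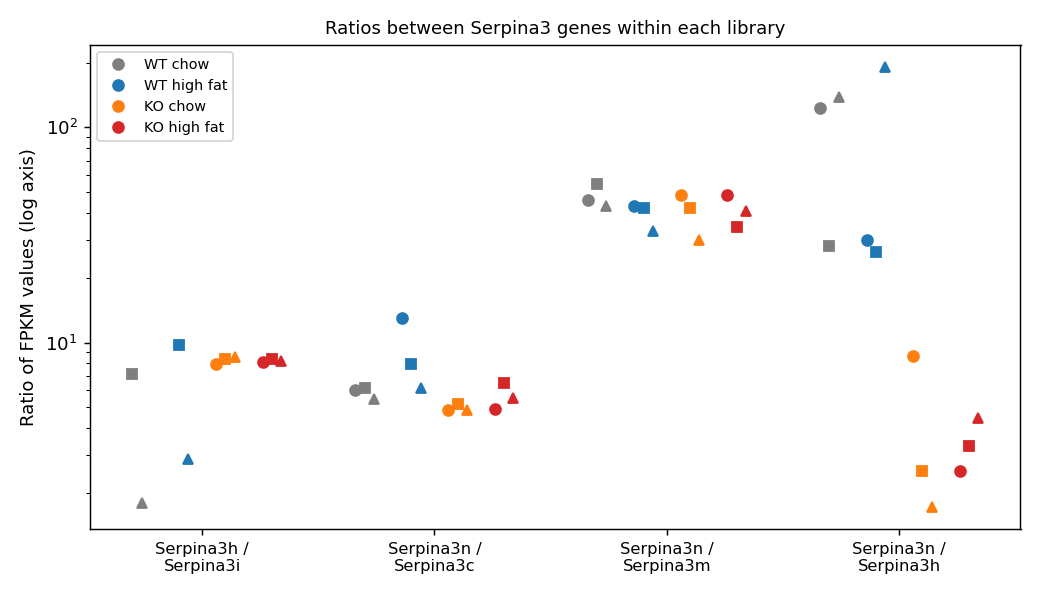
Ratio of FPKM values between pairs of Serpina3 genes within each library (log axis), coloured by group, leaving out 2 WT libraries in which Serpina3i was listed at 0. The ratio of Serpina3h to Serpina3i lies between 7.92 and 8.56 in the KO libraries, and that of Serpina3n to Serpina3h is lower in every KO library than in any WT library.

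Promoter sequences from RefSeq, 300 bases each around a transcript start in GRCm38.p6, were found for 5 of the 8 members. Those of Serpina3n, Serpina3c and Serpina3i are shown because Serpina3n and Serpina3c were lowest in the same libraries and Serpina3i kept to Serpina3h. They lie at chr12:104406458-104406757 on the plus strand, chr12:104153823-104154122 on the minus strand and chr12:104262872-104263171 on the plus strand. Capitals mark matches to TTCNNNGAA, the letters of a STAT binding site with a spacer of 3 bases.
Serpina3n: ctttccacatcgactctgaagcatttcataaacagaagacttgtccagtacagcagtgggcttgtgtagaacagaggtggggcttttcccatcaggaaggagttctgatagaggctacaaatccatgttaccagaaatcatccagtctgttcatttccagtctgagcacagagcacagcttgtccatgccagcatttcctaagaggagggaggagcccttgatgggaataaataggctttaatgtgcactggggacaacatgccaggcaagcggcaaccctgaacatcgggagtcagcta
Serpina3c: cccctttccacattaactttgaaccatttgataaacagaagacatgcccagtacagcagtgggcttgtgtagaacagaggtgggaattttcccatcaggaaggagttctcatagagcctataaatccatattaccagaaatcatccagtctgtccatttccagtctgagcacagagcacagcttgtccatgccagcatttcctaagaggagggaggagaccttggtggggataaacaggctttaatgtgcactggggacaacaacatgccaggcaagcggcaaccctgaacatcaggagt
Serpina3i: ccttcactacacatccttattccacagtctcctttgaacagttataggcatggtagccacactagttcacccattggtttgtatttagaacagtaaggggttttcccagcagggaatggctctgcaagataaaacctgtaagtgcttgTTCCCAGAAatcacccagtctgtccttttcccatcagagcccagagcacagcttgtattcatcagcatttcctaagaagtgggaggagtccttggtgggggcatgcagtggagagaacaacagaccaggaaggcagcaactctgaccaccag
The promoters of Serpina3n and Serpina3c were 93.5% identical over 294 aligned bases, whereas their transcripts were 83.4% identical. Serpina3i was 73.0% identical to Serpina3n over 270 bases and 83.2% identical to Serpina3f over 268 bases. On either strand, TTCNNNGAA was present in the promoters of Serpina3f, Serpina3g and Serpina3i, as in 8.29% of 32817 mouse promoters. TTCNNGAA, the same with a spacer of 2, was in none of the 5, against 8.51% of all. AGAACA, which a monomer of the glucocorticoid receptor binds, was present in Serpina3c, Serpina3f, Serpina3i and Serpina3n and in 18.97% of all. TATAAA, the TATA box, was in Serpina3c and Serpina3f and in 13.6% of all, and TTGCNNAA, bound by C/EBP factors, in Serpina3f and in 10.8%. Such matches are letters in a window and not binding measured here.

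For tests across genes, values were taken to log2(FPKM + 1), genes with at least 1 FPKM in at least 3 samples were kept, 11945 in all, and limma was fitted to the 4 groups with Benjamini-Hochberg adjustment and a threshold of 0.05. Of the 7 rows 6 passed this filter. Serpina3i and Serpina3m passed it through KO samples only, at 1 FPKM or more in 5 and 3 of them, and Serpina3h and the joint row each had 1 WT sample at that level. Between genotypes 1 of the 6, Serpina3h, was past the threshold in chow-fed and in fat-fed mice, where 0.0586% and 0.109% of all genes tested were. All 6 KO samples were above all 6 WT samples in 3 of the 6 rows, Serpina3c, Serpina3h and Serpina3i, and in 1.72% of all genes tested. Since the members were chosen on this contrast, these counts describe the choice and are no test of it.

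On the log2(FPKM + 1) scale, which understates the change of low genes, the KO minus WT difference in chow-fed mice was 3.11 for Serpina3h, 1.15 for Serpina3i, 0.79 for Serpina3c, 0.74 for the joint row, 0.70 for Serpina3n and 0.38 for Serpina3m. In fat-fed mice the differences were 3.36, 1.33, 1.43, 0.71, 1.27 and 0.48 in the same order. All 12 were above 0, which the choice of members on this contrast made likely. Serpina3k, which the filter left out, had ratios of KO to WT means of 4.40 in chow-fed and 0.29 in fat-fed mice, from values under 1 FPKM.

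The diet comparisons were not used to choose the members and could be tested. Between fat-fed and chow-fed WT mice 0 of the 6 rows passed the adjusted threshold of limma, against 0.1% of all genes tested, and 0 passed an unadjusted p of 0.05, against 8.12% of all. Serpina3i and Serpina3m were under 1 FPKM in all 6 WT samples, where this scale leaves them almost no room to pass. Serpina3n had a difference of -0.29 with a 95% interval from -1.28 to 0.69 on the log2 scale (adjusted p = 0.90), and Serpina3h one of -0.01 with an interval from -0.94 to 0.91 (adjusted p = 1.00). Serpina3c had the largest difference, -0.55, with an interval from -1.47 to 0.38 (adjusted p = 0.82). Intervals this wide do not show that the levels were the same on both diets.

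Between fat-fed and chow-fed KO mice 0 of the 6 rows passed the adjusted threshold of limma, against 0% of all genes tested, and 0 passed an unadjusted p of 0.05, against 11.3% of all. The difference was 0.27 for Serpina3n, with a 95% interval from -0.71 to 1.25 (adjusted p = 0.80). It was 0.24 for Serpina3h, with an interval from -0.69 to 1.17 (adjusted p = 0.81), and 0.12 for Serpina3i, with an interval from -0.40 to 0.64 (adjusted p = 0.83). The joint row of Serpina3f and Serpina3g stood at -0.47, with an interval from -1.30 to 0.37 (adjusted p = 0.60), and without the 3 libraries with lymphocyte genes its difference was 0.38, a value that rests on the 1 chow-fed KO sample then left.

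Whether diet acted differently in KO and WT mice was tested by the interaction. Again 0 of the 6 rows passed the adjusted threshold of limma, against 0% of all genes tested, and 0 passed an unadjusted p of 0.05, against 6.25% of all. The largest interaction was that of Serpina3c, 0.63 with an interval from -0.68 to 1.94 (adjusted p = 0.91), followed by Serpina3n with 0.56 and an interval from -0.83 to 1.96 (adjusted p = 0.91 after limma's fit). For Serpina3h it was 0.25, with an interval from -1.06 to 1.56 (adjusted p = 0.96). In WT mice Serpina3i and Serpina3m were under 1 FPKM and Serpina3h at most 1.10 FPKM, where this scale leaves a diet difference little room. The interactions of Serpina3h, Serpina3i and Serpina3m therefore rest mostly on the KO samples.

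**Figure D5:**
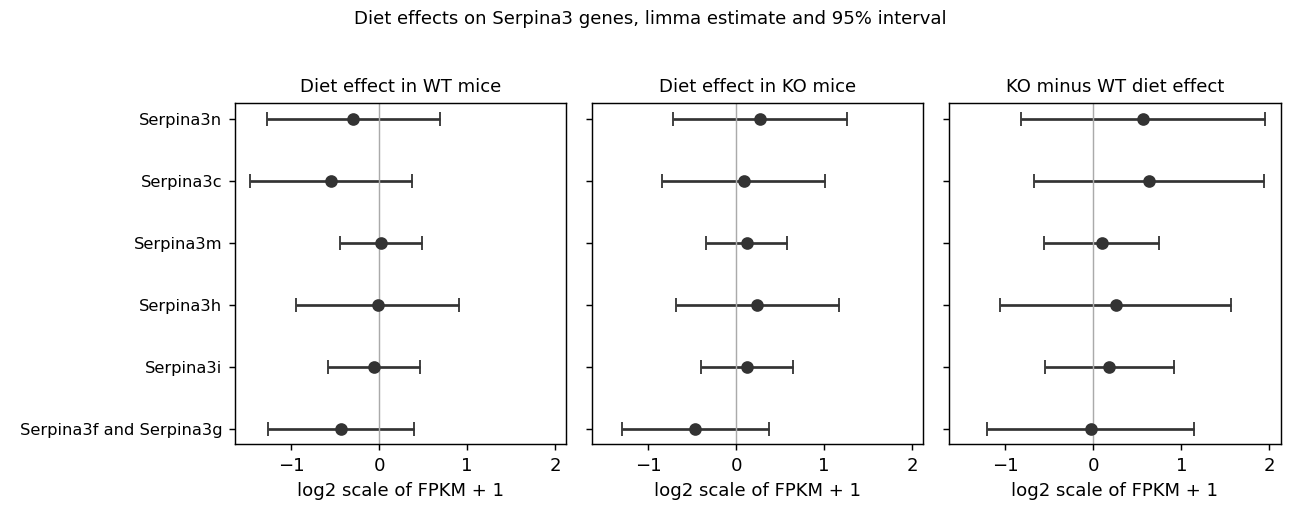
Fat-fed minus chow-fed difference for WT (left) and KO mice (middle) and the difference between those differences (right) for 6 Serpina3 rows, in log2 units of FPKM + 1, with limma's estimates as points and 95% intervals as bars. Every interval includes 0. Serpina3i and Serpina3m were under 1 FPKM in all WT libraries, where this scale leaves a diet difference almost no room.

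Genes outside the 8 members whose pattern over the 12 samples was most like each of them were found by Pearson's r on the log2(FPKM + 1) scale, over samples that share the genotype difference. Serpina3n was nearest to Cfb (r = 0.99), complement factor B of the alternative pathway, Tuba1b (r = 0.98), a tubulin, and Dgat2 (r = 0.98), an enzyme of triglyceride synthesis. Cfb was 1.71 to 11.2 FPKM in WT against 9.19 to 21.5 FPKM in KO mice, and Dgat2 25.7 to 108 and 83.1 to 171 FPKM. Serpina3c was nearest to Nnmt (r = 0.99), which methylates nicotinamide, Mrap (r = 0.98), an accessory protein of melanocortin receptors, and Ccdc80 (r = 0.98), a secreted protein. All of these overlapped between the genotypes except Ccdc80, at 4.97 to 31.9 FPKM in WT against 34.3 to 59.9 FPKM in KO mice.

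Serpina3h and Serpina3i had r = 0.99 with each other over the 12 samples. Within genotypes r was 0.997 over the 6 KO samples and 0.67 over the 6 WT samples. Of the other genes, Serpina3h was nearest to Il20rb (r = 0.97), a receptor subunit for cytokines of the interleukin-20 family, Colq (r = 0.97), the collagen tail that anchors acetylcholinesterase at the neuromuscular junction, and Hsf2bp (r = 0.96), which binds heat shock factor 2. Serpina3i was nearest, outside the family, to Rap1gap2 (r = 0.99), Hsf2bp (r = 0.98) and Il20rb (r = 0.98). Il20rb was 0.718 to 1.14 FPKM in WT against 2.82 to 6.43 FPKM in KO mice, and Colq 4.09 to 5.28 and 7.02 to 13.7 FPKM. Hsf2bp was 0.200 to 0.300 FPKM in WT against 0.863 to 3.65 FPKM in KO mice. In these 4 genes all KO samples were above all WT samples, as in 1.72% of all genes tested. They were picked for likeness to rows split by genotype, so this follows largely from the choice.

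The joint row of Serpina3f and Serpina3g was nearest to Fyb (r = 0.98), an adaptor of T cells, Myd88 (r = 0.98), an adaptor of Toll-like receptors, and the joint row of Ifi47 and Olfr56 (r = 0.97). Serpina3m was nearest to Olfm1 (r = 0.96), Chpf (r = 0.95) and Snx7 (r = 0.94). No gene was among the 3 nearest to both Serpina3n and Serpina3h.

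Other serpins were read from lists chosen for their place or clade. Of 17 other clade A genes, mostly neighbours on chromosome 12, 3 passed the filter, Serpina1a, Serpina1b and Serpina1c, the α1-antitrypsin paralogs. None of the 3 passed the adjusted threshold in any of the 5 comparisons by limma. Serpina1b was at 1.58, 6.76 and 6.38 FPKM in chow-fed and 1.48, 2.86 and 6.63 FPKM in fat-fed WT mice. It was at 6.11, 2.04 and 5.18 FPKM in chow-fed and 9.84, 11.3 and 12.8 FPKM in fat-fed KO mice. The genotypes overlapped in chow-fed and not in fat-fed mice, where the difference was 1.55 with an SE of 0.49 (limma, adjusted p = 0.15).

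Among 11 serpins of other clades that were tested, 0 passed the adjusted threshold by limma, while among fat-fed mice 6 had an unadjusted p under 0.05 (5 higher in KO), against 16.2% of all genes. Among chow-fed mice 1 had, lower in KO, against 16.7% of all genes. Their median difference was 0.38 on each diet, against -0.03 in chow-fed and -0.01 in fat-fed mice for all genes. Serping1, the C1 inhibitor of complement, was 96.3 ± 35.7 FPKM in fat-fed WT and 173 ± 51.2 FPKM in fat-fed KO mice (SD, n = 3 each; limma, adjusted p = 0.17).

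Of 10 tested proteases that serpins of this family can meet, none passed the adjusted threshold in any of the 5 comparisons. Among fat-fed mice all 10 had an unadjusted p under 0.05 in limma, 8 of them higher in KO and 2 lower, against 16.2% of all genes. Among chow-fed mice 5 of the 10 had, all higher in KO, against 16.7% of all genes. Cathepsin L (Ctsl), a lysosomal cysteine protease, was 59.8, 60.8 and 79.5 FPKM in fat-fed WT and 90.6, 135 and 107 FPKM in fat-fed KO mice. The samples did not overlap, and the difference was 0.72 with an SE of 0.16 (limma, adjusted p = 0.076). In chow-fed mice it was 0.08 (limma, adjusted p = 0.78).

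Genes of the pathways known to induce Serpina3n were examined too. Of 14 tested genes of signalling through gp130, the shared receptor of interleukin-6 and its relatives, none passed the adjusted threshold by limma in any comparison, and their median difference between genotypes was 0.13 in chow-fed and 0.07 in fat-fed mice. In limma, 4 of the 14 had an unadjusted p under 0.05 in chow-fed mice, all higher in KO, against 16.7% of all genes. Among fat-fed mice 1 had, lower in KO, against 16.2% of all genes. Of 9 acute phase genes none passed the adjusted threshold, with medians of 0.78 and 1.00. An unadjusted p under 0.05 in limma was reached by 4 of the 9 in chow-fed mice, all higher in KO, against 16.7% of all genes. In fat-fed mice 6 were higher and 1 lower in KO at that level, against 16.2% of all genes. Haptoglobin (Hp), which binds free haemoglobin, was 5.06, 46.6 and 50.03 FPKM in chow-fed WT and 65.4, 41.6 and 54.4 FPKM in chow-fed KO mice. Fat-fed, the WT mice had 7.45, 41.7 and 78.7 FPKM and the KO mice 86.8, 183 and 149 FPKM. It was lowest in the same WT libraries as Serpina3n, and the genotypes overlapped in chow-fed and not in fat-fed mice.

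Of 16 glucocorticoid-responsive genes none passed the adjusted threshold, with medians between genotypes of 0.29 in chow-fed and -0.18 in fat-fed mice. In limma, 7 of the 16 had an unadjusted p under 0.05 in chow-fed mice, all higher in KO, against 16.7% of all genes. Among fat-fed mice 2 were higher and 2 lower in KO at that level, against 16.2% of all genes. Pdk4, a brake on glucose oxidation, was 111, 106 and 96.5 FPKM in chow-fed WT and 136, 251 and 348 FPKM in chow-fed KO mice. Those samples did not overlap, with a difference of 1.12 and an SE of 0.33 (limma, adjusted p = 0.27). Fat-fed, Pdk4 was 316, 399 and 183 FPKM in WT and 261, 186 and 208 FPKM in KO mice, a difference of -0.40 in the other direction (limma, adjusted p = 0.61), and the interaction was -1.52 (limma, unadjusted p = 0.0079, adjusted p = 0.62). Tsc22d3, a direct target of the glucocorticoid receptor, was 185 ± 13.1 FPKM in chow-fed WT and 173 ± 28.7 FPKM in chow-fed KO mice (SD, n = 3 each). Glul was 121, 168 and 143 FPKM in chow-fed WT and 233, 229 and 266 FPKM in chow-fed KO mice. Its samples did not overlap there, with a difference of 0.76 (limma, adjusted p = 0.19). The fat-fed difference of Glul was 0.08 (limma, adjusted p = 0.84). Of 14 genes known to rise in denervated muscle none passed the adjusted threshold, with medians of 0.43 in chow-fed and 0.49 in fat-fed mice. On each diet 12 of the 14 were higher in KO. In limma, 5 had an unadjusted p under 0.05 in chow-fed mice, all higher in KO, against 16.7% of all genes. Among fat-fed mice 6 had, all higher in KO, against 16.2% of all genes. Trim63 and Fbxo32, ubiquitin ligases of muscle atrophy, had differences of 0.01 and -0.14 in chow-fed and 0.03 and -0.32 in fat-fed mice.

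Markers of other cells differed between the groups too. Neutrophil genes summed to 126 to 1172 FPKM in fat-fed WT and to 10.7 to 43.0 FPKM in fat-fed KO mice, but to 2.33 to 28.0 FPKM in chow-fed WT and 15.3 to 133 FPKM in chow-fed KO mice. Macrophage genes summed to 128 to 275 FPKM in WT against 212 to 456 FPKM in KO mice, and fibroblast genes to 851 to 1653 and 1563 to 2259 FPKM. B cell genes reached 54.2 to 59.8 FPKM in the 3 libraries that also held T cell genes and at most 5.82 FPKM in the others. Hepatocyte genes summed to no more than 13.4 FPKM in WT against 6.95 FPKM in KO mice, and muscle genes to 72668 to 104279 and 59405 to 100641 FPKM. The lowest muscle sum of each genotype was in a library where Acta1, one of the muscle genes, was listed at 0. Of all these marker genes, none passed the adjusted threshold of limma between the genotypes. Their part in the Serpina3 values was not tested.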

How the data were processed

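RNA-seq libraries were made from 12 samples of mouse hind leg muscle and read as pairs of 100 bases. The FPKM values were computed by the authors, whose processing notes name TopHat2 2.0.8b, Cuffdiff 2.1.1 and the build mm10, and were deposited as 1 value per gene symbol and library, without pooling. The unit was read from the values and these tools. Read numbers per library were unknown, so no counting interval could be given. Samples were grouped by title, and each was taken to be a separate mouse, since the methods call the samples independent. Where a symbol was repeated, the row with the highest mean was used, and joint rows were kept whole.

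Values were taken to log2(FPKM + 1), genes with at least 1 FPKM in at least 3 samples were kept, and the 4 group means were fitted by limma 3.58.1 (R 4.3.3), using an intensity trend, 8 residual degrees of freedom and Benjamini-Hochberg adjustment, at a threshold of 0.05. Tables and alignments were made in Python 3.11.15 with pandas 2.3.3, NumPy 2.4.6 and Biopython 1.88. The fit was tested on simulated data. Transcripts came from GENCODE M21 and promoters from RefSeq, both for the C57BL/6J reference.

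Members, gene lists and marker lists were chosen with earlier results of these data known. Named genes were the members, Cryab, the 3 genes with the highest Pearson's r to each tested member, and up to 3 genes of each list, those past the threshold first and then those with the highest mean. Not every gene the rule allows is printed, and Mir324 and Acta1 were added after their values were seen. The marker genes named are Ckm, Tnnt3, Fabp4, Adipoq, Cfd and Alb. Alternatives were a pseudocount of 0.1, no filter, a block for the replicate number, fits of only the 2 groups compared, the sum of repeated rows, and each sample left out in turn. Size factors by the median of ratios, and fits without 3 libraries with lymphocyte genes or without 2 libraries lowest in adipocyte genes, were added after seeing the data.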

Additional observations from a re-analysis of the deposited data

How the results depend on the processing

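Between genotypes on normal chow, the number of Serpina3 rows past the threshold, 1 as reported, was 0 with no filter, with the replicate block, with only the 2 groups compared and without the 2 libraries lowest in adipocyte genes. It was 0 to 2 when each sample was left out in turn, with Serpina3i added at 2 and none left without WT replicate 1 or 3 or KO replicate 2 or 3. On high fat diet the number, 1 as reported, was 2 with only the 2 groups compared and without the 3 libraries with lymphocyte genes, 0 without the 2 libraries lowest in adipocyte genes, and 0 to 1 with samples left out, with none left without WT replicate 1 or KO replicate 1 or 2. The difference of Serpina3h stayed between 2.65 and 3.59 on normal chow and between 3.22 and 3.59 on high fat diet with samples left out. The members were chosen on this contrast, so these numbers are a description. For the diet comparisons and the interaction, 0 rows passed in every fit.

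The diet values near 0 changed sign with the settings and none of them passed the threshold. With a pseudocount of 0.1 the diet difference in WT mice was 0.10 for Serpina3h and -0.0031 for Serpina3m, and the interaction of the joint row of Serpina3f and Serpina3g was 0.14. Without the 3 libraries with lymphocyte genes, which leaves 1 KO sample on normal chow that is assumed to vary like the other groups, the difference in WT mice was 0.27 for Serpina3h, that in KO mice was 0.38 for the joint row, and the interaction was 0.43 for the joint row and -0.065 for Serpina3h. Without the 2 libraries lowest in adipocyte genes, the interaction of the joint row was 0.19. When samples were left out singly, the diet difference in WT mice ran from -0.21 to 0.27 for Serpina3h, from -0.15 to 0.20 for Serpina3m and from -0.74 to 0.22 for Serpina3n, where 0.22 was the value without replicate 1 on high fat diet. In KO mice it ran from -0.10 to 0.24 for Serpina3c, from -0.24 to 0.70 for Serpina3h, from -0.15 to 0.41 for Serpina3i and from -0.031 to 0.24 for Serpina3m. The interaction ran from -0.45 to 0.28 for the joint row, from -0.23 to 0.72 for Serpina3h, from -0.087 to 0.47 for Serpina3i and from -0.079 to 0.27 for Serpina3m. The cause was not tested.

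Over all genes, the numbers past the threshold were 7 and 13 between genotypes on normal chow and high fat diet, 12 between diets in WT mice, and 0 between diets in KO mice and for the interaction. With no filter they were 6, 24, 10, 6 and 1, and with only the 2 groups compared 4, 8, 3 and 7. With samples left out they ranged from 4 to 14, 4 to 82, 1 to 32, 0 to 4 and 0 to 1, and 82 was reached without WT replicate 3 on high fat diet and 32 without WT replicate 2 on high fat diet. With the replicate block they were 4, 5, 7, 0 and 0. Replicate numbers were not taken as pairs in the main fits, and whether they pair the mice was not tested. After each group's mean was subtracted, same-numbered samples correlated over the tested genes at -0.81 to -0.27 between genotypes on normal chow. On high fat diet they correlated at -0.07 to 0.02. Between diets the correlations were -0.09 to 0.39 in WT mice and -0.30 to -0.11 in KO mice. Samples with different numbers were not correlated for comparison.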
